A study of Mus musculus with 6 samples.

Results

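The 10 genes described here encode proteins by which neutrophils are recognised: the cytosolic calprotectin subunits S100a8 and S100a9, the primary granule enzymes Mpo and Elane, the secondary granule proteins Ngp, Camp, Lcn2 and Chil3, and the surface receptors Cxcr2 and Csf3r. They were measured in mouse oviducts by every probe set whose platform annotation names only 1 of them, which gave 10 probe sets of 45037, 1 for each gene, and 10 of the 18193 genes that a probe set names alone. A further probe set that names Chil3 together with Chil4 was left out by this rule. The genes were listed with each array's level of them, the order of the arrays and their correlations in view. Those values, and the genotype differences built from them, are therefore a description, and the p-values beside them support nothing.

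Neutrophils store antimicrobial proteins in granules that are filled in sequence as the cells mature in bone marrow. Primary granule enzymes are made early, secondary granule proteins follow, and calprotectin fills the cytosol of late and mature cells, in which transcripts of primary granule enzymes are largely gone. Several of these genes are not exclusive to neutrophils: Lcn2 is also made by secretory epithelia, Chil3 by macrophages, and calprotectin by monocytes and stratified epithelia.

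Oviducts came from female MF1 mice, an outbred stock, at embryonic day 2.5 after mating with wild-type males. The wild-type group (Wt1 +/+) and the heterozygous group (Wt1 ko/+, with 1 disrupted allele of the transcription factor gene Wt1) held 3 samples each, with 1 array per sample. Age, pooling of animals and the construction of the ko allele are not given in the sources used here, and p-values therefore reflect only how far these samples differ from one another, possibly for technical reasons. In these bulk samples, fewer cells of a type and less RNA per cell cannot be told apart.

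Oviduct markers were present throughout: Ovgp1, the oviduct-specific glycoprotein, had normalized log2 levels averaging 14.27 ± 0.01 in the wild-type and 14.33 ± 0.02 in the heterozygous group (SD over 3 arrays each). Its deposited intensities overlapped, at 17928 to 22924 in wild-type and 19744 to 20404 in heterozygous arrays. Wt1 itself overlapped between the groups, with a log2 change of -0.57 (standard error 0.24, adjusted p = 0.933 with limma). Median intensities ranged from 152 to 168 over the arrays. The 3' to 5' ratio of the Actb control, a sign of RNA quality, was 1.67 to 1.74 in heterozygous replicates 2 and 3 and wild-type replicate 1, and 2.40 to 5.90 in the other arrays, with wild-type replicate 3 highest. Of the 10 members 0 passed the limma threshold of an adjusted p of 0.05, in either direction, which 0.00666% of all probe sets passed, and 0.00222% with a higher heterozygous level. An unadjusted p under 0.05 was found in 4 members, all higher in heterozygous arrays, against 5.18% of all probe sets in either direction and 2.25% in that direction.

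The upstream sequences of 5 of the genes are shown: S100a8 and S100a9 of the cytosolic, Ngp of the secondary granule and Mpo and Elane of the primary granule products. These 5 were correlated over the arrays. Chil3 was correlated with them too, but its sequence is not shown. Each runs 5′ to 3′ over the 250 bases before the RefSeq start of the gene in build GRCm38.p6. Capitals mark matches on either strand to 3 short motifs: GAGGAAGT, a binding sequence of the myeloid factor PU.1, TTNNGCAA, a form of the C/EBP sequence, and TATAAA, the TATA box. S100a8 lies at chr3:90668821-90669070 on the plus strand, S100a9 at chr3:90695722-90695971 on the minus strand, Ngp at chr9:110419558-110419807 on the plus strand, Mpo at chr11:87793534-87793783 on the plus strand and Elane at chr10:79886062-79886311 on the plus strand.
S100a8: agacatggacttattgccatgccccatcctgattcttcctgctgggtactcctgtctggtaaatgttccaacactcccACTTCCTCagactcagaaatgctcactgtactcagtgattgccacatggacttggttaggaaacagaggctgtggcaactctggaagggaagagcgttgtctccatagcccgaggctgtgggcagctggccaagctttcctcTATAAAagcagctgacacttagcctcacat
S100a9: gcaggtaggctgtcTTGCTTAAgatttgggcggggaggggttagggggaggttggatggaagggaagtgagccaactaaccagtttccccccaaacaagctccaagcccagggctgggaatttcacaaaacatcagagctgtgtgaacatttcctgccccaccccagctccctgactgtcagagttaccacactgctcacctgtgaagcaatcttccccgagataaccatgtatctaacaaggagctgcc
Ngp: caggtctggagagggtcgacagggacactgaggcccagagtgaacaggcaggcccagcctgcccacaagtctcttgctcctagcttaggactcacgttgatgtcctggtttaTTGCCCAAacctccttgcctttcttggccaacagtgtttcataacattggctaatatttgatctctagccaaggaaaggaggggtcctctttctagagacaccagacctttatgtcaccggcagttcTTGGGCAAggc
Mpo: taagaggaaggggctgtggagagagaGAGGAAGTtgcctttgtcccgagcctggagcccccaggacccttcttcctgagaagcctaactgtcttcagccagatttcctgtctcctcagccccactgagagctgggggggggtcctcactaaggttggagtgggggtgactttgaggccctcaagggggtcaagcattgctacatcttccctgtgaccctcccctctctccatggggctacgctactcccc
Elane: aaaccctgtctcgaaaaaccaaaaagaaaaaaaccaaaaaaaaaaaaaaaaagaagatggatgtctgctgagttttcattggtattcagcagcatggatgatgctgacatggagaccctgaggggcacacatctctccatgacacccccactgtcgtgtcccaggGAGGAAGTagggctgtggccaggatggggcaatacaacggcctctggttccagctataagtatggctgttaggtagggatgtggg
The PU.1 sequence was found in 3 of the 10 members, 172 to 165 bases before the start of S100a8 (on the opposite strand), 224 to 217 before Mpo and 85 to 78 before Elane. Of 32851 promoter windows of the same length in the RefSeq table, 2.44% held it. The C/EBP form was found in S100a9, Ngp and Lcn2, against 9.56% of all windows, and the TATA box in S100a8, 30 to 25 bases before its start, against 12.4%. Camp, Chil3, Cxcr2 and Csf3r held no match to any of these motifs. No match overlapped another. A match is a description of these letters, and whether any factor was bound was not measured. S100a8 and S100a9 are neighbours on chromosome 3, with 0 protein-coding genes between them, and Elane is likewise next to Prtn3, another primary granule protease gene, on chromosome 10.

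Across the members, S100a8 and S100a9 differed most between arrays. Their products form calprotectin, a metal-binding heterodimer that withholds zinc and manganese from microbes and acts on Toll-like receptor 4. The S100a8 level, on the normalized log2 scale used for all levels and changes here, was 5.13, 5.22 and 7.84 in the 3 wild-type arrays (replicates 1, 2, 3) and 9.14, 11.33 and 10.45 in the 3 heterozygous arrays. Every heterozygous array lay above every wild-type array, and wild-type replicate 3 stood above the other wild-type arrays. In deposited intensities the wild-type arrays held 33.3 to 223 and the heterozygous arrays 559 to 2548, so the lowest heterozygous value was 2.51 times the highest wild-type value. The group means were 6.07 ± 1.54 and 10.31 ± 1.10 (SD, n = 3 each), and the log2 change was 4.24 (standard error 0.92), or 18.9-fold. Its probe set bears the platform's suffix for probes shared among transcripts, so part of its signal may come from related sequences. By size of change S100a8 ranked 1 among the 45037 probe sets on the side of higher heterozygous levels, while the difference did not pass the threshold over all probe sets (limma adjusted p = 0.678).

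S100a9 had nearly the same profile. Its levels were 5.39, 4.30 and 7.03 in the 3 wild-type arrays (replicates 1, 2, 3) and 8.41, 10.41 and 9.19 in the 3 heterozygous arrays. Again the groups did not overlap, wild-type replicate 3 was the highest wild-type array, and heterozygous replicate 2 was the highest of all. The log2 change was 3.76 (standard error 0.83), 13.6-fold, with an adjusted p of 0.693 in limma and rank 3 among all probe sets. With any single array left out, the change lay between 3.73 and 5.13 for S100a8 and between 3.12 and 4.49 for S100a9. Their ranks then ranged from 1 to 7 and from 3 to 11, with the lowest placing of both without wild-type replicate 1.

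**Figure D1:**
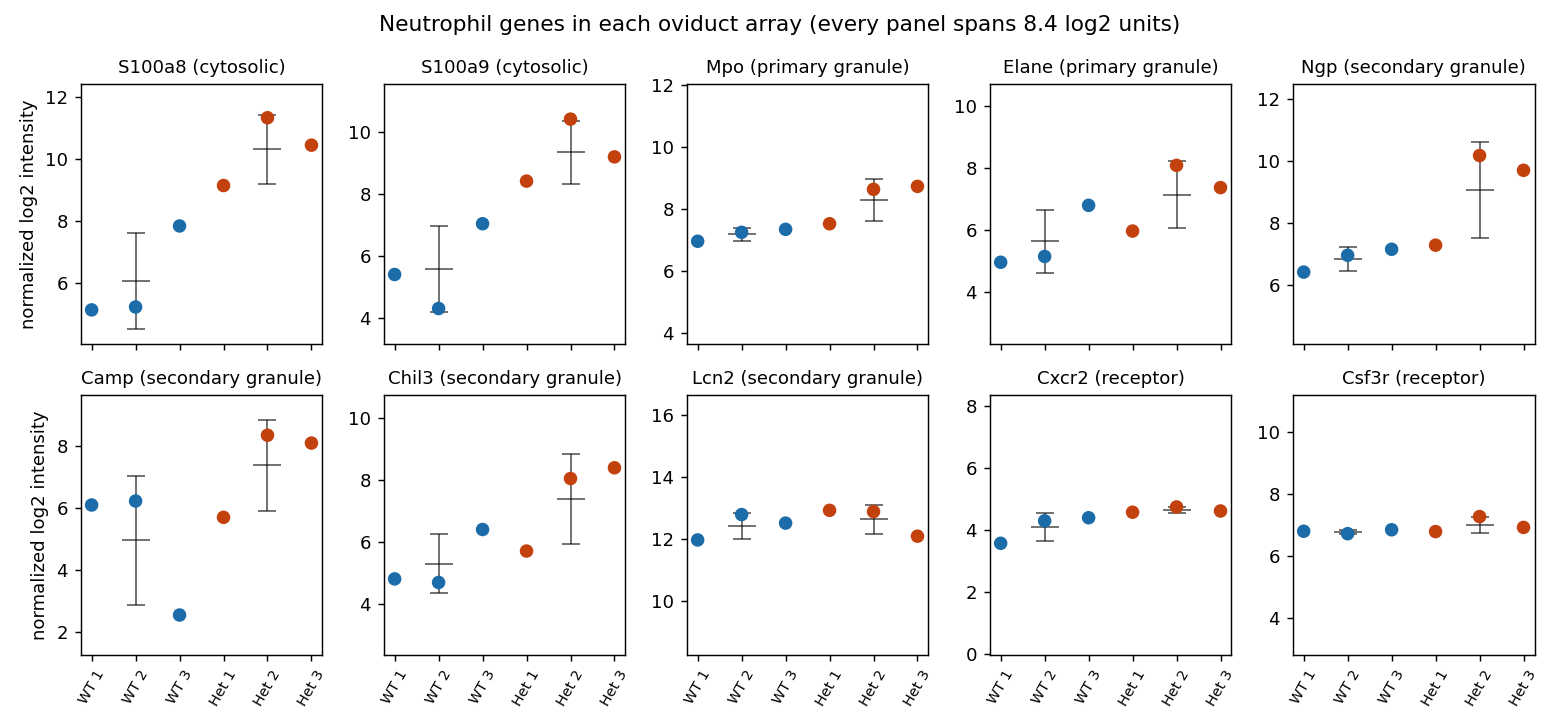
Normalized log2 intensity (y axis) of the 10 genes in the 3 wild-type (WT, blue) and 3 heterozygous (Het, orange) arrays (x axis), with the group mean and SD as black bars; the panels start at different levels but span the same range. S100a8 and S100a9 were higher in every heterozygous array than in any wild-type array, Ngp, Camp, Chil3, Mpo and Elane were highest in heterozygous replicates 2 and 3, and Lcn2 and Csf3r stayed within 1 unit.

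The primary granule members spanned a smaller range over the arrays, 1.77 for Mpo and 3.13 for Elane against 6.20 for S100a8 and 6.11 for S100a9 on the log2 scale. Mpo, myeloperoxidase, which makes hypochlorous acid, had levels of 6.96, 7.25 and 7.34 in the 3 wild-type arrays (replicates 1, 2, 3) and 7.52, 8.63 and 8.73 in the 3 heterozygous arrays. The groups did not overlap, but the deposited intensity of heterozygous replicate 1 was only 1.11 times that of the highest wild-type array, while heterozygous replicates 2 and 3 stood apart from all others. The log2 change was 1.11 (standard error 0.36, limma adjusted p = 0.895). Elane, neutrophil elastase, had levels of 4.96, 5.14 and 6.79 in the 3 wild-type arrays (replicates 1, 2, 3) and 5.96, 8.08 and 7.37 in the 3 heterozygous arrays. Here the groups overlapped, since wild-type replicate 3 exceeded heterozygous replicate 1, and the log2 change was 1.51 (standard error 0.72, limma adjusted p = 0.933).

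Among the secondary granule members, Ngp, a granule protein related to the cathelicidins, was far higher in a pair of arrays than in the rest. Its levels were 6.43, 6.97 and 7.16 in the 3 wild-type arrays (replicates 1, 2, 3) and 7.30, 10.19 and 9.71 in the 3 heterozygous arrays. Heterozygous replicate 1 lay next to the wild-type arrays, at 150.1 in deposited intensity against 82.2 to 141 in wild type, whereas heterozygous replicates 2 and 3 reached 1163 and 839. The log2 change was 2.21 (standard error 0.78, limma adjusted p = 0.932), with means of 6.85 ± 0.38 and 9.06 ± 1.55 (SD, n = 3 each). The heterozygous arrays thus differed among themselves by more than the wild-type arrays did.

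Camp, the precursor of the mouse cathelicidin peptide, had levels of 6.08, 6.21 and 2.53 in the 3 wild-type arrays (replicates 1, 2, 3) and 5.69, 8.34 and 8.08 in the 3 heterozygous arrays. Wild-type replicate 3 was its lowest array, unlike in the S100 genes, at a deposited intensity of 6.22, and heterozygous replicate 1 lay below the other wild-type arrays. The log2 change of 2.42 (standard error 1.23, limma adjusted p = 0.933) was 1.22 without wild-type replicate 3, and 0.96 once the log2 Actb ratio entered the fit as covariate. Chil3, the chitinase-like protein Ym1, had levels of 4.80, 4.69 and 6.40 in the 3 wild-type arrays (replicates 1, 2, 3) and 5.70, 8.04 and 8.39 in the 3 heterozygous arrays. It overlapped between the groups in the same way as Elane, with wild-type replicate 3 above heterozygous replicate 1, and its log2 change was 2.08 (standard error 0.85, limma adjusted p = 0.933). The probe set that names both Chil4 and Chil3 gave a log2 change of 1.10 (standard error 0.49), also with overlap, and was likewise highest in heterozygous replicates 2 and 3.

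Lcn2, lipocalin 2, which binds bacterial siderophores, had another profile. Its levels were 11.98, 12.80 and 12.52 in the 3 wild-type arrays (replicates 1, 2, 3) and 12.93, 12.89 and 12.10 in the 3 heterozygous arrays. The highest array was heterozygous replicate 1 and the lowest wild-type replicate 1, with heterozygous replicate 3 next to it. The log2 change was 0.21 (standard error 0.33, limma adjusted p = 0.949), and it was -0.017 without wild-type replicate 1. All 6 arrays lay within 0.95 on the log2 scale.

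The receptors varied little. Cxcr2, the receptor for neutrophil-attracting chemokines, had levels of 3.56, 4.28 and 4.38 in the 3 wild-type arrays (replicates 1, 2, 3) and 4.56, 4.73 and 4.60 in the 3 heterozygous arrays. The groups did not overlap, but all deposited intensities lay between 11.1 and 27.1. Its log2 change of 0.56 (standard error 0.25, limma adjusted p = 0.933) was 0.30 with log2 of the intensity plus 16, and likewise 0.30 without wild-type replicate 1. Csf3r, the receptor for granulocyte colony-stimulating factor, had levels of 6.81, 6.73 and 6.86 in the 3 wild-type arrays (replicates 1, 2, 3) and 6.80, 7.29 and 6.94 in the 3 heterozygous arrays. The groups overlapped, and the log2 change was 0.21 (standard error 0.17, limma adjusted p = 0.933), or 0.067 without heterozygous replicate 2. In every array both receptors lay below 7.31, the array-wide median, and no detection calls were used, so whether they lay above background is unknown.

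Set side by side, all 10 members had a log2 change above 0, against 48.3% of all probe sets, and their median change was 1.79, against -0.01 over all probe sets. The change was 4.24 and 3.76 for the 2 cytosolic genes, and the median was 2.15 for the 4 secondary granule genes, 1.31 for the 2 primary granule genes and 0.38 for the 2 receptors. In 5 members, S100a8, S100a9, Ngp, Mpo and Cxcr2, every heterozygous array exceeded every wild-type array, where 4.67% of all probe sets did so. A log2 change of at least 1 was found in 7 members and in 3.17% of all probe sets, and one of at least 2 in 5 members and in 0.289%. Because the genes were listed with these levels known, nothing is read from these shares.

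The arrays were not ordered alike in all classes. Heterozygous replicate 2 was the highest array for S100a8, S100a9, Ngp, Camp, Elane, Cxcr2 and Csf3r, and heterozygous replicate 3 for Mpo and Chil3. Wild-type replicate 3 led the wild-type group in the S100 genes, Elane, Chil3, Ngp, Mpo and both receptors, and was last in Camp. Heterozygous replicate 1 was within or next to the wild-type range for Ngp, Camp, Chil3, Mpo and Elane, above it for the S100 genes, and the highest array of all for Lcn2. Without heterozygous replicate 1, the number of members with no overlap was 9, all but Lcn2, against 8.60% of all probe sets. Without heterozygous replicate 2, 2 members had a change of at least 2 (0.389% of all probe sets). Without wild-type replicate 1, 3 members did (0.984% of all probe sets), and without heterozygous replicate 3 likewise 3 (0.393%).

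Heterozygous replicates 2 and 3 belong to the 3 arrays of lower Actb 3' to 5' ratio, but so does wild-type replicate 1, the lowest array for S100a8, Ngp, Mpo, Elane, Lcn2 and Cxcr2. Within those 3 arrays the log2 change was 5.76 for S100a8, 4.40 for S100a9, 3.52 for Ngp, 2.77 for Elane and 1.72 for Mpo. Within the 3 arrays of higher ratio it was 2.61 for S100a8 and 2.74 for S100a9, but 0.23 for Ngp, -0.0057 for Elane, 0.23 for Mpo and 0.16 for Chil3. For Camp the change was 2.12 in the arrays of lower ratio and 1.31 in those of higher ratio. That 1.31 rests on wild-type replicate 3, with a level of 2.53 and a deposited intensity of 6.22. Heterozygous replicate 1, at 5.69, lay below wild-type replicate 2, at 6.21. Each of these changes within a ratio class rests on 3 arrays. Only 1 heterozygous array had the higher ratio, so that ratio and that array cannot be told apart. With that ratio in the fit over all arrays the change was 4.90 for S100a8, 2.09 for Ngp and 1.08 for Mpo.

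**Figure D2:**
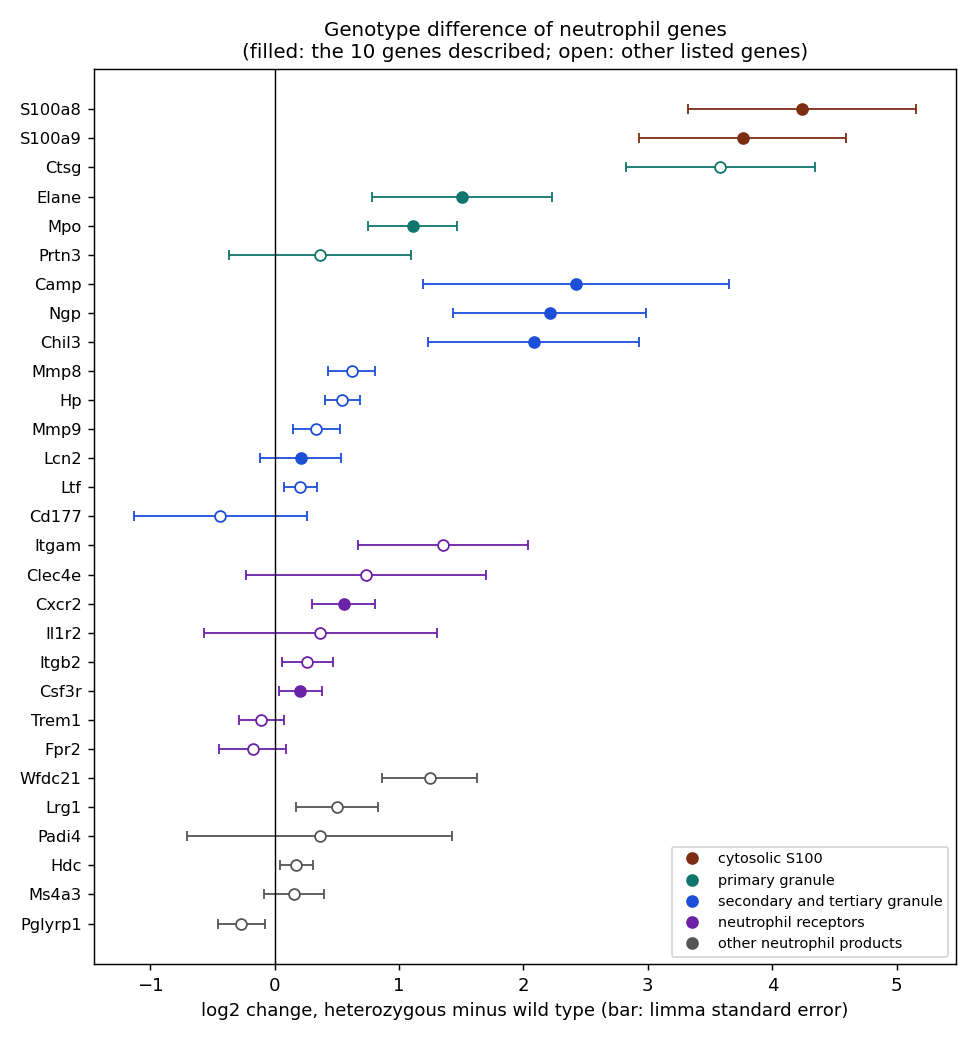
Log2 change (x axis, heterozygous minus wild type, bars 1 limma standard error) of the measured neutrophil genes (y axis), grouped by class; filled points are the 10 genes and open points the other listed genes. S100a8, S100a9 and Ctsg stood at 3.58 to 4.24, whereas Ltf and Lcn2 stood at 0.21.

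Other neutrophil genes were taken from lists. Of 27 listed genes that are not among the 10, 19 had a probe set of their own, of which 15 had a change above 0 and 4 below, with a median of 0.36. None passed the limma threshold over all probe sets. An unadjusted p under 0.05 was found in 4, all higher in heterozygous arrays. Of all probe sets 5.18% had one in either direction and 2.25% in that direction. Ly6g, Fpr1 and Cxcr1 were not analysed here. The primary granule list added Ctsg, cathepsin G, whose levels were higher in every heterozygous array than in any wild-type array. Its means were 2.74 ± 0.81 and 6.32 ± 1.33 (SD, n = 3 each), and its log2 change was 3.58 (standard error 0.76, limma adjusted p = 0.670), rank 4 among all probe sets. Its wild-type intensities are those of a very dim probe set, and with log2 of the intensity plus 16 the change was 2.11. Prtn3, proteinase 3, the neighbour of Elane, gave 0.37 (standard error 0.73) with overlap, -0.072 without wild-type replicate 2 and -0.069 without heterozygous replicate 2.

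Of the other secondary and tertiary granule genes, Ltf, lactoferrin, which secretory epithelia also make, had means of 13.45 ± 0.09 and 13.66 ± 0.08 (SD, n = 3 each). Its change was 0.21 (standard error 0.14, limma adjusted p = 0.933), without overlap on the normalized scale. Its deposited intensities overlapped, at 10080 to 12221 in wild-type and 11737 to 13948 in heterozygous arrays. Hp, haptoglobin, gave 0.54 (standard error 0.14, limma adjusted p = 0.780) and Mmp8, neutrophil collagenase, 0.62 (standard error 0.19, limma adjusted p = 0.865), both without overlap. In this list 8 of 9 genes, the 4 members included, had a change above 0, with a median of 0.54, and Cd177, a neutrophil surface antigen, was the exception at -0.44 (standard error 0.70). Lactoferrin and lipocalin 2 thus differed between arrays far less than Ngp, Camp and Chil3 of the same granule class.

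Receptors beyond Cxcr2 and Csf3r did not share one direction. Over the 8 measured receptors of the list, Cxcr2 and Csf3r included, 6 had a change above 0, with a median of 0.31. Itgb2, the shared beta chain of leukocyte integrins, gave 0.26 (standard error 0.20), Trem1, an amplifier of neutrophil activation, -0.11 (standard error 0.18) and Fpr2, a formyl peptide receptor, -0.18 (standard error 0.27). Of the other neutrophil products, 5 of 6 had a change above 0, with a median of 0.27. Hdc, the histamine-forming enzyme, gave 0.18 (standard error 0.13), Pglyrp1, a peptidoglycan-binding granule protein, -0.27 (standard error 0.19) and Ms4a3, a marker of granulocyte precursors, 0.16 (standard error 0.24). Wfdc21 gave 1.25 (standard error 0.38, limma adjusted p = 0.878) without overlap.

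Neutrophils are drawn from blood by chemokines that bind Cxcr2 and are released under granulocyte colony-stimulating factor, the ligand of Csf3r. Of 12 listed attractants and growth factors, 5 had a change above 0 and 7 below, with a median of -0.16. Cxcl1, a Cxcr2 ligand, gave -0.48 (standard error 0.40) at its brightest probe set and 0.54 and 0.22 at the others, all with overlap. Csf3, the growth factor itself, gave 0.10 (standard error 0.19). Cxcl15, a chemokine of lung and uterine gland epithelium, gave 2.50 (standard error 0.21, limma adjusted p = 0.105), and its heterozygous arrays lay between 1121 and 1311 in intensity, against 174 to 269 in wild type. It was past the threshold once dim probe sets were left out (limma adjusted p = 0.0249) and under limma's trended, robust variance (adjusted p = 0.0180). Its heterozygous arrays thus lay close together, whereas those of Ngp, Camp, Chil3, Mpo and Elane did not.

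Transcription factors of granulocyte formation showed no common direction. Of the 7 measured, 3 had a change above 0 and 4 below, with a median of -0.05. Cebpb gave -0.25 (standard error 0.20), Cebpd -0.17 (standard error 0.17) and Myb 0.02 (standard error 0.15), and Spi1, which encodes PU.1, gave -0.05 (standard error 0.23). Among receptors, inhibitors and partners of the granule products, 6 of 8 had a change above 0, with a median of 0.32. Slpi, an inhibitor of elastase, gave 0.66 (standard error 0.23, limma adjusted p = 0.933) and Serpinb1a, another inhibitor of granule proteases, 0.44 (standard error 0.15, limma adjusted p = 0.915), both without overlap. Slc22a17, a receptor proposed for lipocalin 2, gave -0.66 (standard error 0.19, limma adjusted p = 0.858), with every heterozygous array below every wild-type array.

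Correlations were computed over 6 arrays for the 45 pairs of members at their probe sets. They carry no p-value because the genes were listed with these correlations known, and arrays share genotype and RNA quality. S100a8 and S100a9 had a Pearson r of 0.98 and a Spearman rho of 0.94, and r was 0.99 without the 2 arrays farthest from the S100a8 median. After subtraction of each genotype's mean, r between them was 0.93. Mpo and Ngp, a primary and a secondary granule gene, had an r of 0.99, a rho of 0.94 and an r of 0.98 in both the shortened set and after subtraction of the genotype means. The calprotectin pair and the Mpo and Ngp pair were thus each tightly correlated, also within genotypes.

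Between classes, the 4 pairs of a cytosolic with a primary granule gene had r from 0.85 to 0.92, with a median of 0.90, and a median of 0.78 within genotypes. The 8 pairs of a cytosolic with a secondary granule gene ranged from 0.21 to 0.91, with a median of 0.31 within genotypes. The 8 pairs of primary with secondary granule genes ranged from 0.07 to 0.99, with a median of 0.60 within genotypes. Within the secondary granule class the 6 pairs had a median r of only 0.29, from -0.04 to 0.94, and a median of -0.07 within genotypes. The classes by granule did not separate the genes: Ngp and Chil3 had r of 0.99 and 0.95 with Mpo, and 0.94 with each other. Lcn2 had a median r of 0.18 with the other 9 genes and Camp one of 0.45. Without the 2 arrays farthest from the median of 1 gene of each pair, these medians were 0.26 for Lcn2 and 0.82 for Camp. Within genotypes they were -0.08 for Lcn2 and -0.15 for Camp. Over the 36 pairs without Lcn2, r was above 0 in 36, with a median of 0.81. Within genotypes the median over these pairs was 0.62, and r ran from -0.37 to 0.98.

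**Figure D3:**
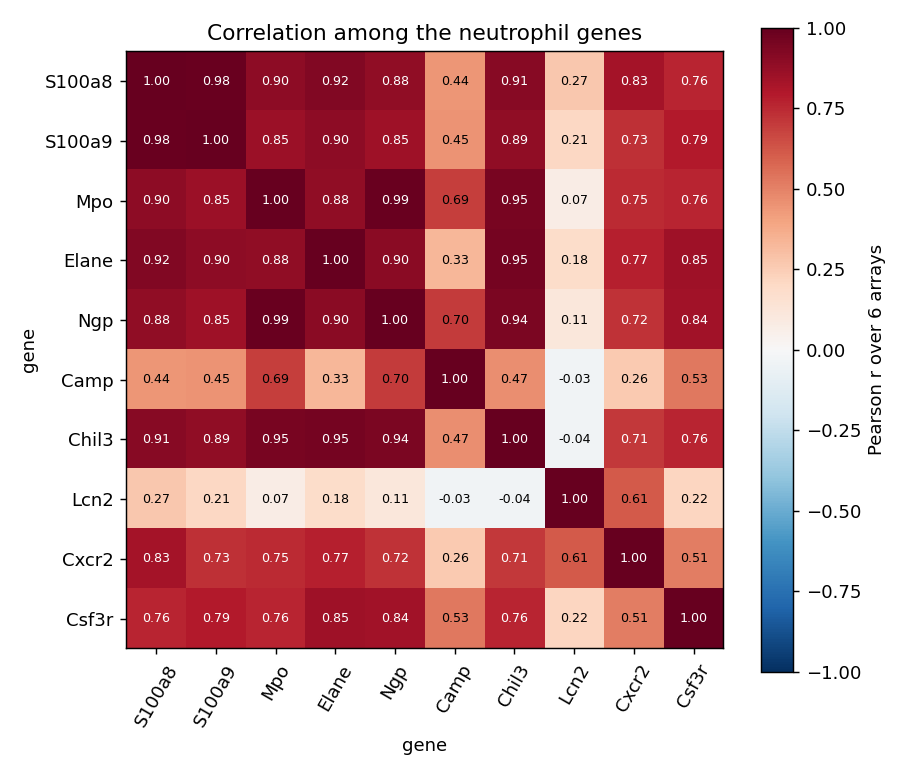
Pearson r over the 6 arrays for each pair of the 10 genes (both axes), in color from -1 to 1. S100a8, S100a9, Mpo, Elane, Ngp and Chil3 had r of 0.85 to 0.99 with one another, while Lcn2 had r between -0.04 and 0.61 and Camp between -0.03 and 0.70 with the others.

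The genes most like S100a9 and Ngp in pattern were sought by Pearson r over the 6 arrays among 2862 other named probe sets whose mean exceeded the array-wide median and whose range was at least 1. S100a8 had the highest r with S100a9. It was followed by Papss2, which makes the sulfate donor of the cell (r = 0.98), Mmrn2, an endothelial matrix protein (0.97), Kcnmb1, a potassium channel subunit of smooth muscle (0.96), and Tnfaip6, a hyaluronan-binding protein of inflamed tissue (0.95). With Ngp, Mpo had the highest r, followed by Lrp2, an endocytic receptor that takes up lipocalin 2 (0.96), Cytip, an adaptor of leukocytes (0.94), Sh3bp5 (0.94) and Sfpq, a splicing factor (0.93). Without the 2 arrays farthest from the Ngp median, r stayed at 0.98 for Mpo but was 0.69 for Lrp2, 0.38 for Cytip, 0.42 for Sh3bp5 and -0.019 for Sfpq. The arrays left out there were heterozygous replicates 2 and 3. Of the same probe sets, 16.1% had an r with S100a9 as high as Camp and 38.9% as high as Lcn2, against 1.26% for Chil3 and 1.08% for Elane.

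Markers of other cells were set beside these values, each at its brightest probe set. Of 14 monocyte and macrophage genes, 9 had a change above 0, with a median of 0.11, and their summed intensity was 13737 to 17831 in wild-type and 15482 to 21240 in heterozygous arrays. Csf1r, the receptor that defines these cells, gave 0.07 (standard error 0.19), Lyz2 0.16 (standard error 0.22) and Retnla 0.40 (standard error 0.35). Arg1, an arginase of alternatively activated macrophages, which like Chil3 is made there, gave 1.24 (standard error 0.31, limma adjusted p = 0.768) without overlap. Ccr2, from the same list, gave 0.79 (standard error 0.33, limma adjusted p = 0.933), and 1.51, 0.03 and 0.48 at its other probe sets, all with overlap. The sums overlapped between the genotypes, and heterozygous replicate 2 was highest as for the neutrophil genes. Their part in the result was not tested.

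Markers of other blood cells had medians near or below 0. Of 9 listed red cell genes 4 were measured, and 1 of these had a change above 0, with a median of -0.19. Their summed intensity was 159 to 393 in wild-type and 191 to 369 in heterozygous arrays. In every array these 4 genes lay below 7.31, the array-wide median, so the sums rest on dim probe sets. The sums were lowest in wild-type replicate 1, the lowest array for Ngp, Mpo and Elane, and in heterozygous replicates 2 and 3, their highest arrays. The part of blood in the result was not tested. Platelet genes had a change above 0 in 2 of 5, with a median of -0.04 and sums of 1728 to 2192 and 1868 to 2065, and Pf4 gave 0.16 (standard error 0.19). Eosinophil genes (3 of 5 above 0, median 0.01, sums of 94.0 to 159 and 124 to 189) and mast cell genes (4 of 8, median 0.07, sums of 1793 to 2421 and 1725 to 2056) overlapped between the genotypes. T and NK cell genes had 4 of 8 above 0, with a median of -0.03 and sums of 811 to 1186 and 908 to 981.

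Of the remaining lists, oviduct muscle had its changes on the side of the neutrophil genes. All 6 oviduct muscle genes had a change above 0, with a median of 0.65 and sums of 27372 to 34130 and 31111 to 43152. Acta2 gave 0.12 (standard error 0.13), Tagln 0.26 (standard error 0.14) and Myh11 0.58 (standard error 0.23). None of these overlapped between the genotypes on the normalized scale, but the deposited intensities of each did. Actg2 gave 0.84 (standard error 0.25, limma adjusted p = 0.858) and Cnn1 0.91 (standard error 0.31, limma adjusted p = 0.917), without overlap on either scale. Actg2 had deposited intensities of 1416 to 1687 in wild-type and 2112 to 3791 in heterozygous arrays. Those of Cnn1 were 1188 to 1445 and 1568 to 3402. Des gave 0.72 (standard error 0.44) with overlap. Of 5 B and plasma cell genes 3 had a change above 0, with sums of 3389 to 5746 and 6358 to 7219, which were carried by Jchain, of antibody-secreting cells, at 0.86 (standard error 0.18, limma adjusted p = 0.672). The median of that list was 0.11, and Ighm, the heavy chain of IgM, gave -0.58 (standard error 0.63) and Ms4a1, a B cell surface protein, 0.17 (standard error 0.21), both with overlap. Other Ighm probe sets ran from -0.53 to 0.80, among them 0.59 and -0.32, both without overlap. The part of muscle and plasma cells in the result was not tested. Stratified epithelium, another source of calprotectin, had 2 of 10 genes above 0, a median of -0.22 and sums of 1424 to 1771 and 1289 to 1511, with Krt10 at -0.24, Krt5 at 0.15 and Lor at -0.19. Oviduct epithelium had 3 of 8 above 0, with a median of -0.10 and sums of 52814 to 65710 and 54055 to 60238.

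**Figure D4:**
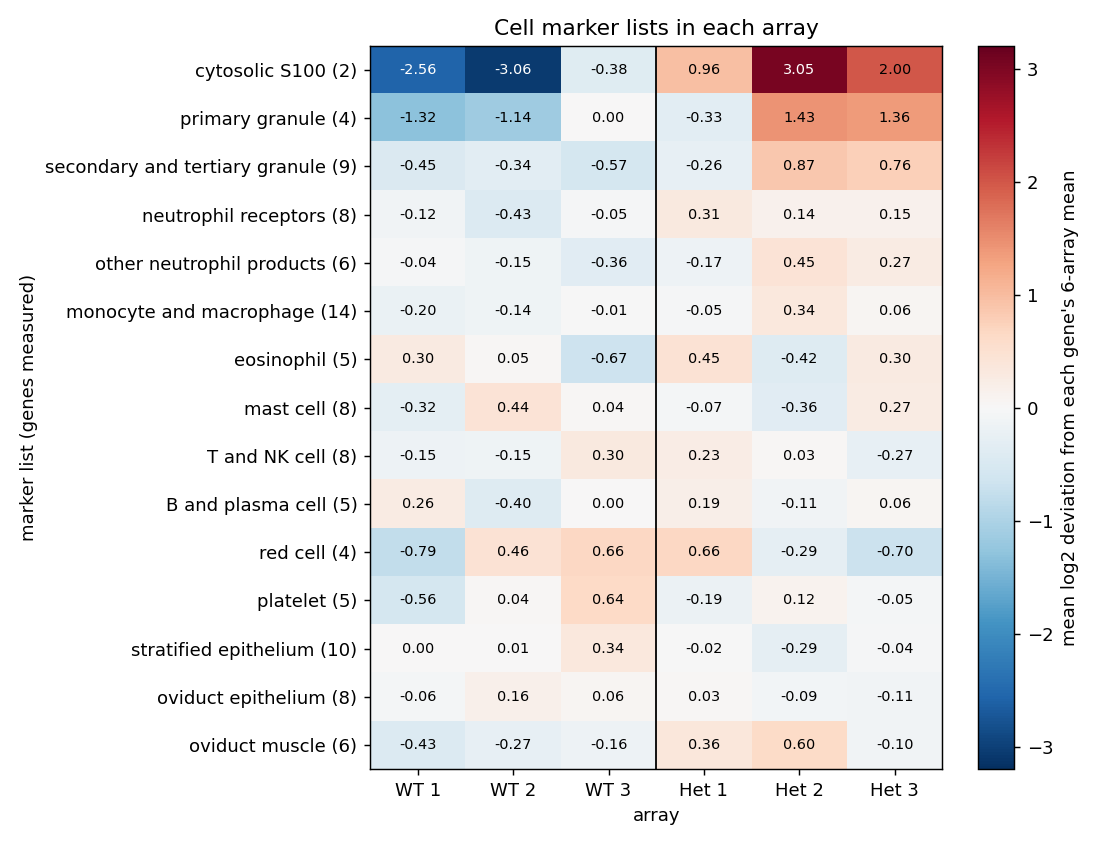
Mean log2 deviation of each marker list (y axis, with the number of measured genes) from its genes' means over the 6 arrays, in each array (x axis; WT wild type, Het heterozygous). The cytosolic S100 pair ran from -3.06 in wild-type replicate 2 to 3.05 in heterozygous replicate 2 and the primary granule list from -1.32 to 1.43. The monocyte and macrophage list, a mean over 14 genes, stayed between -0.20 and 0.34.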

How the data were processed

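For each of 6 arrays the authors deposited a linear intensity of every probe set; per the deposited values, each array had been scaled to a trimmed mean of 500.002. The summarising program and a genome build are not given in the sources used here. The 64 control probe sets were left out, intensities under 1 were set to 1, and log2 values were quantile normalized, since array medians differed by 0.147 (log2). Of the 45037 probe sets, 34945 had 1 gene symbol, 932 had several and 9160 were unnamed. All 10 members matched the RefSeq gene and promoter tables.

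Heterozygous minus wild-type differences were fitted over all probe sets with limma 3.58.1 (R 4.3.3), two-sided, Benjamini-Hochberg adjusted over the whole table, threshold 0.05. A listed gene was taken at its probe set of highest mean. Genes named from a list are among its 3 of highest mean, with exceptions. Ctsg, Mmp8, Cd177, Wfdc21, Spi1, Arg1, Ccr2, Actg2, Cnn1 and Des were named after their values were seen. Ly6g, Fpr1 and Cxcr1 were named because no probe set names them alone. The members and lists were chosen with earlier results of these data known. Alternatives were other scalings, offsets, filters, variance models, a block, a covariate and left-out arrays. The fit was tested on simulated data. The number of arrays limits the precision.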

Additional observations from a re-analysis of the deposited data

How the results depend on the processing

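Over 187 refits of 14 single genes (the 10 members, Ctsg, Prtn3, Ltf and Wt1), 184 kept their direction and their side of the threshold. The 3 others changed sign: Lcn2 was -0.017 without wild-type replicate 1 (-0.017 to 0.48 over all single arrays left out), and Prtn3 was -0.072 without wild-type replicate 2 and -0.069 without heterozygous replicate 2 (-0.072 to 0.97). The members past the limma threshold numbered 0 in every alternative (5 members were tested with the dim filter and 9 without cross-hybridizing probe sets), with 2 to 7 at an unadjusted p under 0.05, while 1810 to 5893 of all probe sets had one in the fits over all 45037. Adjusted p ranged from 0.199 to 1.00 for S100a8 and from 0.206 to 1.00 for S100a9, lowest with array weights. Over all probe sets 3 passed in the fit as reported, 14 with array weights, 1 with log2 of the intensity plus 16, 0 with the 3' to 5' ratio as covariate (2339 at an unadjusted p under 0.05), and 0 to 1 with an array left out. Over all probe sets the replicate numbers showed no pairing: deviations of same-numbered arrays correlated at -0.16, -0.02 and -0.09. With the replicate block 0 probe sets passed (2024 at an unadjusted p under 0.05). Among the members the block lowered the standard error for S100a8 (0.75 against 0.92), Ngp, Chil3, Mpo, Elane and Cxcr2. It raised the standard error for S100a9 (0.88 against 0.83), Camp, Lcn2 and Csf3r. Of the listed genes 0 passed as reported and 1, Cxcl15, when dim probe sets were left out and under the trended, robust variance. Leaving out an array was added for counts of members after the data were seen: 5 to 9 had no overlap (8.0% to 13.9% of all probe sets, against 4.67% with every array), 9 to 10 had a change above 0, and 2 to 6 a change of at least 2 (0.382% to 0.984%, against 0.289%). The cause of these shifts was not tested. The median range of the members over the arrays was 3.41, and 2.84 to 3.49 under other scalings and offsets, and the median correlation among them 0.76, and 0.78 in both. Each member has 1 probe set, so averaging probe sets changed nothing. Dim probe sets limit Cxcr2, Camp and Ctsg most, as no detection calls were used.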
